A study of Mus musculus with 9 samples.

Results

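The genes described here are 9 genes that mast cells and basophils are known for, taken by symbol from the deposited table of read counts, which has 24391 gene rows. All 9 had a row: Ms4a2, Fcer1a and Fcer1g for the subunits of the high-affinity IgE receptor, Hdc and Tph1 for amine synthesis, Il1rl1 for the IL-33 receptor, and Cpa3, Mcpt8 and Prss34 for granule proteases. Their counts were read across 3 populations of bone marrow cells, sorted by the surface proteins CD43 and c-Kit from C57BL/6 mice aged 6 to 8 weeks with AML1-ETO9a leukaemia. Every population came from that leukaemia model, and no healthy marrow was among the samples used here. AML1-ETO9a is a shortened splice form of the AML1-ETO fusion transcription factor of acute myeloid leukaemia. The labels do not say how it was introduced, whether cells of several animals were pooled, or which cells in the marrow carried it. The populations were CD43++ckit+ (strong CD43, c-Kit present), CD43+ckit- (CD43 present, c-Kit absent) and CD43-ckit- (neither), with 3 libraries each. The labels do not state whether the 3 libraries of a population are separate animals. The p-values therefore set each difference against the spread between these libraries, and it is not known whether that spread is one between animals or a technical one.

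Mast cells and basophils carry the high-affinity IgE receptor, which is built of an IgE-binding alpha chain, a signal-amplifying beta chain and a pair of gamma chains that other Fc receptors and several lectins also use. When IgE on the receptor is cross-linked, the cells release stored histamine, serotonin in rodents, proteases and newly made lipid mediators. IL-33, sensed through the product of Il1rl1, activates both cell types, and c-Kit, one of the sort markers here, is the growth factor receptor that mast cells need to survive. Some of these genes are also used by other marrow cells, among them neutrophils for Fcer1g and several immature myeloid cells for Hdc.

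Levels are given as CPM (read counts relative to the library's size), scaled between libraries by the trimmed mean of M-values (TMM), and are listed in the order of libraries 1, 2 and 3. Total counts ranged from 17966197 to 31781746 per library. Kit, which encodes c-Kit, lay between 146.0 and 175.5 CPM in CD43++ckit+, between 7.80 and 21.0 in CD43+ckit- and between 18.8 and 42.1 in CD43-ckit-. Spn, which encodes CD43, averaged 502.3 ± 63.7, 194.1 ± 50.3 and 142.3 ± 61.2 CPM in the same order (SD, n = 3), so both sort genes were highest in CD43++ckit+. One library of each population stood apart from the other two. The summed level of 12 neutrophil marker genes, none of which was at 0 in any library, was 369.6, 99.6 and 6330 CPM for CD43++ckit+, 510.2, 3887 and 3079 for CD43+ckit-, and 3995, 17270 and 17862 for CD43-ckit-. CD43++ckit+ library 3 was therefore high in neutrophil transcripts, and library 1 of each other population was low. In bulk RNA, fewer cells of a type and less RNA per cell cannot be told apart.

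No member was at 0 in any library, and all 9 passed the filter on low counts. Measurement was nevertheless poor for 3 of them. Cpa3 had 1, 4 and 7 reads in CD43+ckit-, Mcpt8 had 3 and 3 reads in CD43++ckit+ libraries 1 and 2 and 7 in CD43+ckit- library 1, and Fcer1a had 6 reads in CD43+ckit- library 1 and 7 in CD43-ckit- library 1. A single read has an exact 95% Poisson interval of 0.0253 to 5.57 reads, 3 reads one of 0.619 to 8.77 and 7 reads one of 2.81 to 14.4. These intervals cover counting error only. The remaining members had at least 11 reads in every library, the smallest count being that of Prss34 in CD43+ckit- library 1.

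**Figure D1:**
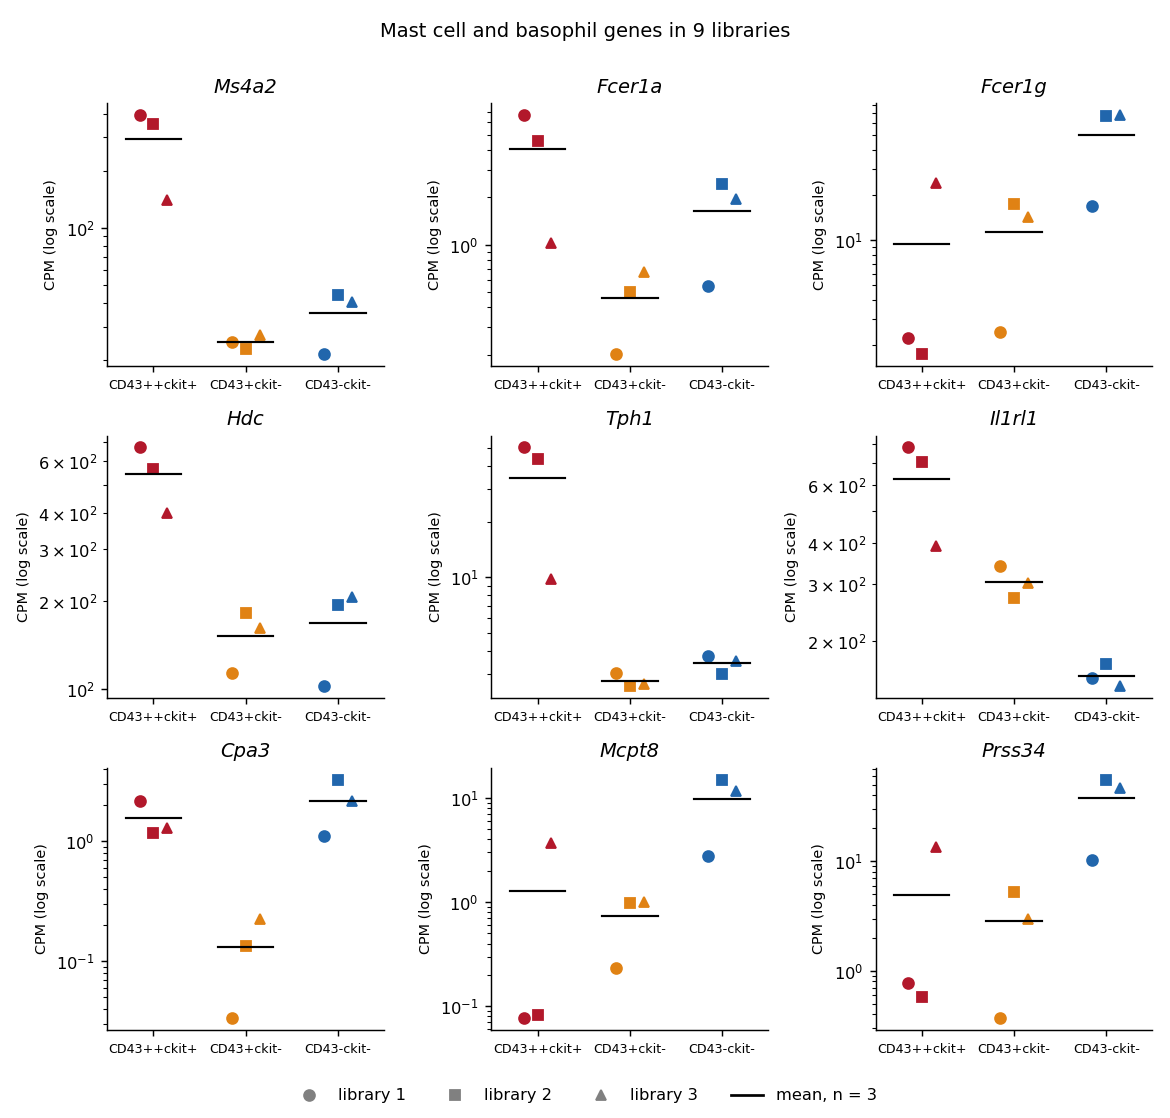
CPM (TMM-scaled, log axis) of the 9 members in each of the 9 libraries, with 1 point per library and a bar at the mean of 3. Ms4a2, Hdc, Tph1 and Il1rl1 lie highest in all 3 CD43++ckit+ libraries, whereas Fcer1g, Mcpt8 and Prss34 lie highest in CD43-ckit- libraries 2 and 3 and, within CD43++ckit+, in library 3.

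The promoter windows of the genes that were higher in CD43++ckit+ in both of its comparisons are shown for their sequence context, since these genes moved together. Each window holds the 250 bases before and 50 bases after an annotated RefSeq transcription start (GRCm38.p6), on the gene's strand, and all 9 members matched the RefSeq table. Capitals mark matches, on either strand, to GATAA, a motif of GATA factors (TTATC on the opposite strand), or to TGTGGT, a motif of the AML1 (RUNX1) protein (ACCACA on the opposite strand). The Ms4a2 window is chr19:11623670-11623969 on the minus strand, the Hdc window chr2:126618629-126618928 on the minus strand, and the window at the first Tph1 start chr7:46672488-46672787 on the minus strand. The Il1rl1 windows, one for each annotated start, are chr1:40429320-40429619 and chr1:40439379-40439678, both on the plus strand.
Ms4a2: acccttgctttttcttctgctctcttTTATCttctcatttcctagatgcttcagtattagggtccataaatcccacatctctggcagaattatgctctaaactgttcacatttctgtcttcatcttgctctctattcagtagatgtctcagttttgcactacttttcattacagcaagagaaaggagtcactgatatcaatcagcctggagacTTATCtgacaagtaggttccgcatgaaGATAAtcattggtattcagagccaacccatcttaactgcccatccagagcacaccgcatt
Hdc: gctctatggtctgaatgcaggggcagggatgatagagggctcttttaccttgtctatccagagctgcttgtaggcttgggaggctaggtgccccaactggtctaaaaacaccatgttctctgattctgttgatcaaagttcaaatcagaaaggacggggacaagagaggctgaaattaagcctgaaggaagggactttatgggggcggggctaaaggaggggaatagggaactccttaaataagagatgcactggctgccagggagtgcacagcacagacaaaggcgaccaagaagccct
Tph1 start 1: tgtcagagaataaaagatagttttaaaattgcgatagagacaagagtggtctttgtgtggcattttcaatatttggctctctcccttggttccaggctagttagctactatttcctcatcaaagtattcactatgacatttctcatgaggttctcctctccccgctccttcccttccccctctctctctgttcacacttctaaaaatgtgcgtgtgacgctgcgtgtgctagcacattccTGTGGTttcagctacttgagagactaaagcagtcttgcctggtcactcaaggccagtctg
Il1rl1 start 1: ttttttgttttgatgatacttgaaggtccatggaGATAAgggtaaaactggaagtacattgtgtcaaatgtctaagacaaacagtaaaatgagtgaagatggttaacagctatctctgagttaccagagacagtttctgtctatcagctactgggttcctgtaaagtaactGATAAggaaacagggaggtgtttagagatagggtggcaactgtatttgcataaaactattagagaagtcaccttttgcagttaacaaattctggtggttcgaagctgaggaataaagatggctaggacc
Il1rl1 start 2: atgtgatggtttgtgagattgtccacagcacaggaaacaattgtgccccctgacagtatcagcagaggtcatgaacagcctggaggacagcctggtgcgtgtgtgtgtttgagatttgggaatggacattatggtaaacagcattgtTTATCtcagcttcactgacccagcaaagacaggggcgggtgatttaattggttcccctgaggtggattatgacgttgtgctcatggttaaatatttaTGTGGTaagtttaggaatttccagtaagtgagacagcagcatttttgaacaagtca
GATAA occurred 3 times in the Ms4a2 window, at -224, -37 and -10 from the start, and 2 times at the first Il1rl1 start, at -216 and -79. The second Il1rl1 start had GATAA at -103 and TGTGGT at -6, and the first Tph1 start had TGTGGT at -10. The Hdc window and the window at the second Tph1 start (chr7:46667328-46667627, minus strand) held neither. Among 32851 RefSeq windows of the same length, 25.4% held GATAA and 16.8% held TGTGGT on either strand, so a window with one of them is common. The windows of the other 5 members were searched as well. Fcer1a had GATAA at -92 and TGTGGT at -14, Cpa3 had GATAA at -45 and TGTGGT at -73, and Prss34 had GATAA at -30. Fcer1g had TGTGGT at 10 bases after the start, and Mcpt8 had it at -188 and -139. The E-box CACGTG was in none of the members' windows, against 7.15% of all windows, and CATGTG was in those of Fcer1a (-208) and Prss34 (-100), against 14.2%. Matches to these letters are a description of the sequence and not evidence of a bound site.

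The receptor's beta chain set CD43++ckit+ apart from both other populations, while its alpha chain was scarce and its gamma chain followed another order. Ms4a2, the beta chain, was at 392.2, 351.2 and 139.8 CPM in CD43++ckit+, at 24.9, 22.9 and 27.1 in CD43+ckit- and at 21.5, 44.2 and 40.7 in CD43-ckit-. Every CD43++ckit+ library lay above every other library, and CD43+ckit- and CD43-ckit- overlapped. Ms4a2 was thus 11.8-fold higher in CD43++ckit+ (294.4 ± 135.5 CPM, SD, n = 3) compared with CD43+ckit- (25.0 ± 2.11), a log2 difference of 3.56 ± 0.41 (SE; adjusted p = 0.000469, edgeR's quasi-likelihood test with Benjamini-Hochberg adjustment). Against CD43-ckit- (35.5 ± 12.2 CPM) the log2 difference was 3.05 ± 0.40 (adjusted p = 0.0002). For CD43+ckit- against CD43-ckit- it was -0.51 ± 0.38 (adjusted p = 0.272). With the replicate number as a block over the libraries of these populations it was -0.49 (adjusted p = 0.0109). That block was chosen from correlations in these same counts, so its p-values for these populations, here and below, are no separate support. Per kilobase of exon, Ms4a2 ranked at percentiles 94 to 98.4 of 12102 tested genes in CD43++ckit+ and at percentiles 62.1 to 76.2 elsewhere.

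Fcer1a, the IgE-binding alpha chain, was at 6.65, 4.57 and 1.03 CPM in CD43++ckit+, at 0.202, 0.503 and 0.673 in CD43+ckit- and at 0.550, 2.42 and 1.94 in CD43-ckit-. Its CD43++ckit+ libraries lay above those of CD43+ckit- but overlapped those of CD43-ckit-, because CD43++ckit+ library 3 was the lowest of its population. The log2 difference from CD43+ckit- was 3.14 ± 0.79 (adjusted p = 0.0122, edgeR) and rested on 6, 15 and 21 reads in CD43+ckit-. With the replicate number as a block over the libraries of these populations, its adjusted p was 0.0755. Against CD43-ckit- the log2 difference was 1.31 ± 0.74 (adjusted p = 0.138). It was 1.76 (adjusted p = 0.0186) without CD43++ckit+ library 3, and 2.12 (adjusted p = 0.0346) when libraries were scaled by their totals instead of TMM. For CD43+ckit- against CD43-ckit- it was -1.83 ± 0.78 (adjusted p = 0.0753), and -1.82 (adjusted p = 0.000118) with the block over the libraries of these populations. It also passed without CD43++ckit+ library 3 (adjusted p = 0.023) and, at -2.23, without CD43-ckit- library 1 (adjusted p = 0.0462).

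Fcer1g, the gamma chain, was at 2.23, 1.75 and 24.2 CPM in CD43++ckit+, at 2.45, 17.5 and 14.2 in CD43+ckit- and at 17.0, 66.7 and 67.9 in CD43-ckit-. The populations overlapped in every comparison, and the high libraries were those with high neutrophil markers. Its log2 difference was -0.27 ± 1.10 for CD43++ckit+ against CD43+ckit- (adjusted p = 0.873), -2.42 ± 1.15 for CD43++ckit+ against CD43-ckit- (adjusted p = 0.0897) and -2.15 ± 1.14 for CD43+ckit- against CD43-ckit- (adjusted p = 0.139). Without CD43++ckit+ library 3 the first became -2.51 (adjusted p = 0.0393) and the second -4.66 (adjusted p = 0.00187). The second was also called with the replicate number as a block, at -2.84 over all libraries (adjusted p = 0.0254) and at -3.22 over those of the populations compared (adjusted p = 0.0405). The third became -2.32 (adjusted p = 4.68e-33) with the block over the libraries of CD43+ckit- and CD43-ckit-, in which every pair of the same number had less in CD43+ckit-. That adjusted p comes from few libraries and from a block chosen from these same counts. It is not a measure of the strength of the evidence.

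Set side by side per kilobase of exon, the receptor's subunits were far from equal. In CPM per kilobase, CD43++ckit+ averaged 104.7 ± 48.2 for Ms4a2, 4.09 ± 2.85 for Fcer1a and 10.7 ± 14.7 for Fcer1g (SD, n = 3). The beta transcript exceeded the alpha transcript 20.9, 27.3 and 48.3 times in the CD43++ckit+ libraries, 43.9, 16.1 and 14.3 times in CD43+ckit- and 13.9, 6.47 and 7.45 times in CD43-ckit-. It exceeded the gamma transcript 54.7 and 62.3 times in CD43++ckit+ libraries 1 and 2 but 1.8 times in library 3. In the other populations this ratio was 3.16, 0.406 and 0.593 (CD43+ckit-) and 0.394, 0.206 and 0.186 (CD43-ckit-). Beta therefore stood above gamma in all CD43++ckit+ libraries and in CD43+ckit- library 1, and below it in the other 5.

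**Figure D2:**
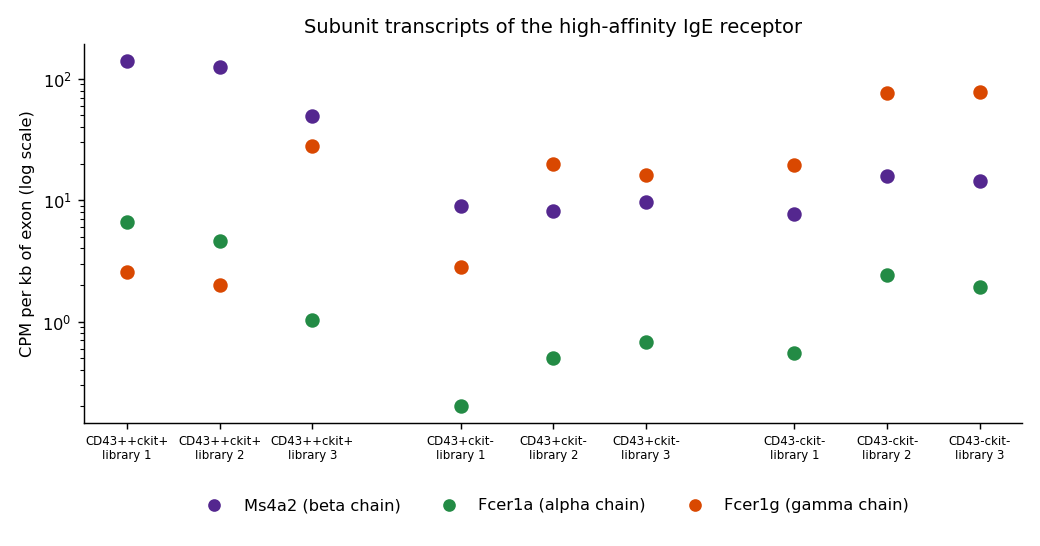
CPM per kilobase of exon (log axis) of the 3 IgE receptor subunit transcripts in each library, with 1 point per gene and library. Ms4a2 is the highest subunit in the 3 CD43++ckit+ libraries and in CD43+ckit- library 1, Fcer1g is the highest in the other 5, and Fcer1a is the lowest in every library except CD43++ckit+ libraries 1 and 2.

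Both amine-synthesis genes were higher in CD43++ckit+. Hdc, whose product makes histamine from histidine, was at 669.9, 566.9 and 399.7 CPM in CD43++ckit+, at 113.7, 181.3 and 161.6 in CD43+ckit- and at 102.2, 193.8 and 206.8 in CD43-ckit-. All CD43++ckit+ libraries lay above the rest, and the other populations overlapped. Its log2 difference was 1.84 ± 0.31 from CD43+ckit- (3.58-fold; adjusted p = 0.00186, edgeR) and 1.70 ± 0.31 from CD43-ckit- (3.25-fold; adjusted p = 0.00102). For CD43+ckit- against CD43-ckit- it was -0.14 ± 0.30 (adjusted p = 0.705). Within both of these populations library 1, which had the fewest neutrophil transcripts, also had the least Hdc; the part of neutrophil transcripts in this was not tested.

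Tph1, the tryptophan hydroxylase that starts serotonin synthesis outside the brain, was at 50.4, 43.5 and 9.80 CPM in CD43++ckit+, at 3.03, 2.58 and 2.66 in CD43+ckit- and at 3.77, 3.01 and 3.52 in CD43-ckit-. CD43++ckit+ library 3 was the lowest of its population and still lay above all 6 libraries of the others, which overlapped. Tph1 had a log2 difference of 3.65 ± 0.53 from CD43+ckit- (adjusted p = 0.000996) and 3.33 ± 0.53 from CD43-ckit- (adjusted p = 0.000513). Between the latter populations it was -0.31 ± 0.50 (adjusted p = 0.607). Per kilobase of exon, Tph1 was far lower than Hdc in CD43++ckit+, at 5.60 ± 3.52 against 85.4 ± 21.3 CPM per kilobase (SD, n = 3).

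Il1rl1, which encodes the membrane receptor ST2 and its soluble form, differed in all 3 comparisons. It was at 782.2, 707.8 and 389.8 CPM in CD43++ckit+, at 340.2, 271.4 and 300.1 in CD43+ckit- and at 153.7, 169.9 and 145.7 in CD43-ckit-. No libraries of different populations overlapped, and the order was the same for every library, CD43++ckit+ above CD43+ckit- above CD43-ckit-. Il1rl1 had a log2 difference of 1.04 ± 0.24 for CD43++ckit+ against CD43+ckit- (adjusted p = 0.00752), 2.0 ± 0.24 for CD43++ckit+ against CD43-ckit- (adjusted p = 0.000126) and 0.96 ± 0.24 for CD43+ckit- against CD43-ckit- (adjusted p = 0.0091). Counts per gene do not separate the transcripts of the membrane and the soluble form. In CD43++ckit+, Il1rl1 ranked at percentiles 95 to 97.9 of tested genes per kilobase of exon, and Hdc at percentiles 95.6 to 97.7.

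The granule proteases did not share this order. Cpa3, a carboxypeptidase of mast cell granules that immature basophils and progenitors also express, was at 2.18, 1.18 and 1.29 CPM in CD43++ckit+, at 0.0336, 0.134 and 0.224 in CD43+ckit- and at 1.10, 3.27 and 2.15 in CD43-ckit-. CD43+ckit- lay below both other populations, which overlapped. No CD43+ckit- library reached the level that the filter on low counts asked for, so Cpa3 was tested through its reads in the populations where it was higher. Cpa3 had a log2 difference of 3.51 ± 0.64 for CD43++ckit+ against CD43+ckit- (adjusted p = 0.0028) and -4.01 ± 0.66 for CD43+ckit- against CD43-ckit- (adjusted p = 0.00126), both against 12 reads over the 3 CD43+ckit- libraries. Leaving out CD43+ckit- library 3, which held most of those reads, moved them to 4.13 and -4.63, both still called. For CD43++ckit+ against CD43-ckit- it was -0.49 ± 0.54 (adjusted p = 0.427), and 0.36 with library totals in place of TMM.

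Mcpt8, a serine protease used to mark mouse basophils, was at 0.0768, 0.0820 and 3.68 CPM in CD43++ckit+, at 0.235, 0.972 and 0.993 in CD43+ckit- and at 2.75, 15 and 11.6 in CD43-ckit-. CD43++ckit+ libraries 1 and 2 were the lowest of all 9, and library 3 was higher than any CD43+ckit- library. The log2 difference was 0.81 ± 1.34 for CD43++ckit+ against CD43+ckit- (adjusted p = 0.677), -2.92 ± 1.37 for CD43++ckit+ against CD43-ckit- (adjusted p = 0.0863) and -3.73 ± 1.44 for CD43+ckit- against CD43-ckit- (adjusted p = 0.0566). Without CD43++ckit+ library 3 the first turned to -3.14 (adjusted p = 0.033) and the second became -6.87 (adjusted p = 0.000391). The third, whose libraries did not overlap, passed in that fit (adjusted p = 0.00214), with the DESeq2 Wald test (adjusted p = 0.00359) and with the replicate block over the libraries of its populations (-3.73, adjusted p = 5.22e-31). As for Fcer1g, the adjusted p of the block is not a measure of the strength of the evidence.

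Prss34, another basophil serine protease, was at 0.768, 0.574 and 13.5 CPM in CD43++ckit+, at 0.370, 5.20 and 2.98 in CD43+ckit- and at 10.2, 55.9 and 47.1 in CD43-ckit-. Its order over the libraries was close to that of Mcpt8, with CD43++ckit+ library 3 again above all CD43+ckit- libraries. The log2 difference was 0.80 ± 1.30 for CD43++ckit+ against CD43+ckit- (adjusted p = 0.671), -2.92 ± 1.35 for CD43++ckit+ against CD43-ckit- (adjusted p = 0.0844) and -3.73 ± 1.41 for CD43+ckit- against CD43-ckit- (adjusted p = 0.0549). Without CD43++ckit+ library 3 these were -2.08 (adjusted p = 0.126), -5.80 (adjusted p = 0.0017) and -3.73 (adjusted p = 0.00563). With the replicate block over the libraries of its populations the third was -3.93 (adjusted p = 2.08e-65). As for Fcer1g, that adjusted p is not a measure of the strength of the evidence. Without CD43+ckit- library 2 the third was -4.57.

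**Figure D3:**
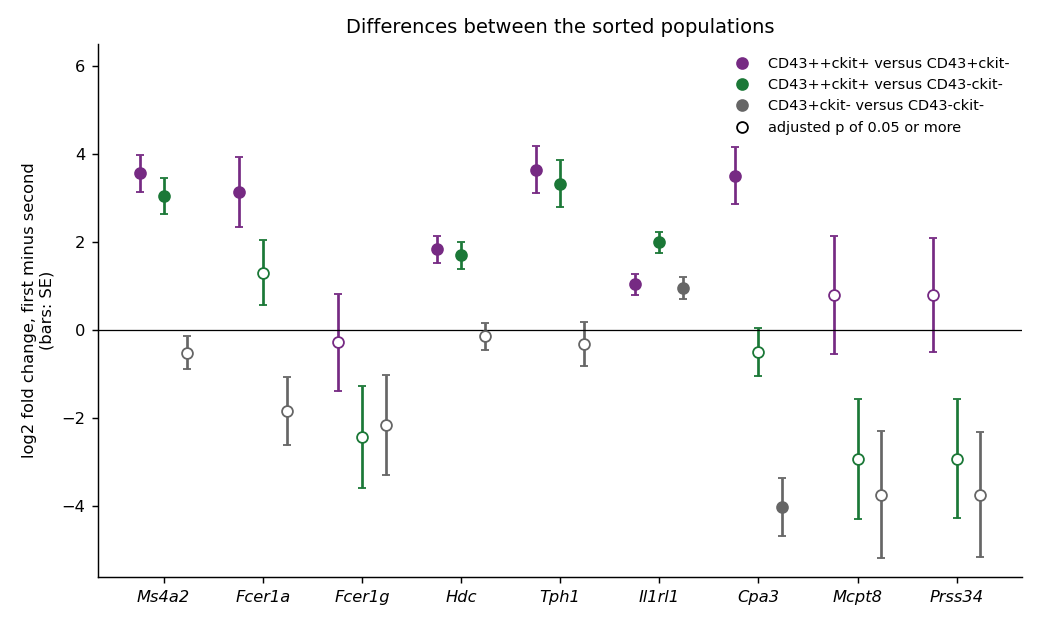
Log2 fold change (first named population minus the second) of each member in the 3 comparisons, with bars of 1 SE and open points where the adjusted p was 0.05 or more. Ms4a2, Hdc, Tph1 and Il1rl1 have filled points above 0 in both comparisons of CD43++ckit+, and the widest bars belong to Fcer1g, Mcpt8 and Prss34.

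Counted over the 9 members, 6 were called higher in CD43++ckit+ compared with CD43+ckit- and 0 lower at an adjusted p under 0.05, namely Ms4a2, Fcer1a, Hdc, Tph1, Il1rl1 and Cpa3; of all 12573 tested genes 39.8% were called in that comparison, 19.7% higher and 20.1% lower. The libraries of these 6 members also did not overlap, as was so for 27% of tested genes in that direction and 28.5% in the other. Their median log2 difference over all 9 members was 1.84, against 0.01 over all tested genes. The DESeq2 Wald test called 6 higher and 0 lower as well, with 44.8% of tested genes called, and the count at an unadjusted p under 0.05 was 6. Without CD43++ckit+ library 3, 6 were higher and 2 lower (Fcer1g and Mcpt8), with 46.7% of tested genes called, and without CD43++ckit+ library 3 and library 1 of each other population together, 6 were higher and 3 lower, with 67.4% of tested genes called.

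Against CD43-ckit-, 4 members were higher in CD43++ckit+ and 0 lower, namely Ms4a2, Hdc, Tph1 and Il1rl1, where 67.4% of tested genes were called, 39.7% higher and 27.7% lower. The share of members called was therefore below that of all genes. The libraries of 4 members did not overlap, all with CD43++ckit+ higher (42.7% of tested genes, against 30.5% with CD43++ckit+ lower), and the median over the 9 members was 1.31, against 0.19 over all tested genes. At an unadjusted p under 0.05 the count was also 4, whereas the DESeq2 Wald test called 4 higher and 2 lower (Mcpt8 and Prss34), with 69.7% of tested genes called. Without CD43++ckit+ library 3 the counts were 5 higher and 3 lower, with 74.4% of tested genes called. Without that library and library 1 of each other population they were also 5 and 3, with 81.8% of tested genes called.

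Between CD43+ckit- and CD43-ckit-, 1 member was higher in CD43+ckit- (Il1rl1) and 1 lower (Cpa3), where 51.9% of tested genes were called, 31% higher and 20.9% lower. The libraries of Cpa3, Mcpt8 and Prss34 did not overlap, with CD43+ckit- lower (28.2% of tested genes), and those of Il1rl1 did not overlap, with CD43+ckit- higher (36.1%). The median over the 9 members was -1.83, against 0.13 over all tested genes, and 5 members had an unadjusted p under 0.05. Libraries of the same number deviated together in these populations, but libraries 2 and 3 did so as much across numbers (r = 0.343 and 0.349). With the replicate number as a block over these 6 libraries, 1 member was higher and 6 were lower, among 66.7% of tested genes called. The members added by the block were Ms4a2, Fcer1a, Fcer1g, Mcpt8 and Prss34. The block was chosen from these same counts, so it is no separate support for these members. The counts without CD43++ckit+ library 3 were 1 higher and 5 lower, although that library belongs to neither population, because all populations share one estimate of the spread, and 61.2% of tested genes were called in that fit. Without CD43++ckit+ library 1, or without CD43++ckit+ library 2, they were 1 higher and 3 lower, with 48.6% and 51.3% of tested genes called.

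The comparisons share libraries, so their counts are not independent of each other. The scaling between libraries also bears on them. Scaling by library totals moved the median log2 difference of all tested genes from 0.01 to 0.28 for CD43++ckit+ against CD43+ckit-, from 0.19 to 1.11 for CD43++ckit+ against CD43-ckit- and from 0.13 to 0.78 for CD43+ckit- against CD43-ckit-. The share of called genes that were higher moved from 49.4% to 67%, from 58.9% to 82.2% and from 59.7% to 85.2%. Under that scaling Ms4a2, Hdc, Tph1 and Il1rl1 kept their direction and their call in both comparisons of CD43++ckit+.

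Fcer1g, Mcpt8 and Prss34 varied with the neutrophil markers from library to library. Per 1000 CPM of the 12 neutrophil markers, Fcer1g was at 6.02, 17.6 and 3.82 CPM in CD43++ckit+, at 4.81, 4.50 and 4.61 in CD43+ckit- and at 4.25, 3.86 and 3.80 in CD43-ckit-. The 17.6 belonged to the library with the fewest neutrophil transcripts, and the other 8 libraries lay between 3.80 and 6.02. Mcpt8 lay between 0.208 and 0.871 CPM per 1000 in all 9 libraries, and Prss34 between 0.725 and 5.76. Ms4a2, in contrast, ranged from 2.28 in CD43-ckit- library 3 to 3525 in CD43++ckit+ library 2. Cpa3, with the narrowest range in ratio of the other 6 members, ran from 0.0345 to 11.8. None of the 12 neutrophil markers was called in any comparison of the populations, and the part of neutrophil transcripts in the levels of the members was not tested.

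**Figure D4:**
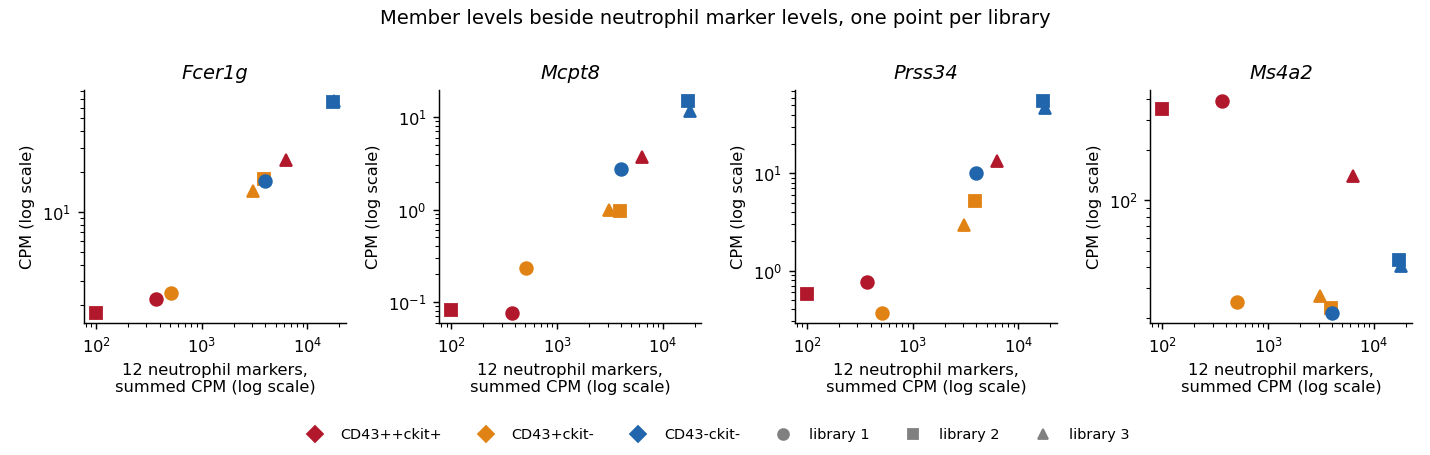
CPM of Fcer1g, Mcpt8, Prss34 and Ms4a2 (log axis) against the summed CPM of 12 neutrophil markers (log axis), with 1 point per library. The points of Fcer1g, Mcpt8 and Prss34 climb from CD43++ckit+ libraries 1 and 2 to CD43-ckit- libraries 2 and 3 with CD43++ckit+ library 3 among them, and those of Ms4a2 do not.

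The primary granule genes and the monocyte and macrophage genes were highest in library 3 within CD43++ckit+ and lowest in library 1 within each other population. The 6 primary granule genes summed to 74.3, 22.2 and 1124 CPM for CD43++ckit+, 109.4, 215.2 and 139.7 for CD43+ckit-, and 978.2, 1561 and 1627 for CD43-ckit-, and 12 monocyte and macrophage genes to 79.3, 33.6 and 737.4, then 76.3, 504.6 and 397.3, then 623.6, 1914 and 1927. Of these lists, 3 of 6 and 8 of 12 were lower in CD43+ckit- relative to CD43-ckit-, 0 and 4 were lower with CD43++ckit+ set against CD43-ckit-, and none was called between CD43++ckit+ and CD43+ckit-. The 9 eosinophil genes summed to between 105.1 and 466.4 CPM in CD43++ckit+ and CD43+ckit- and between 418.9 and 790.9 in CD43-ckit-. Ear2 and Ear6 were at 0 in every CD43++ckit+ library, and 1 of the 7 tested was higher in the first population in each comparison. Within CD43-ckit-, library 1 had the highest sums of erythroid (57959 CPM, against 40088 and 37073), B-lineage (223.1, against 84.7 and 107.1) and dendritic cell genes (486.7, against 366.5 and 403.0). Dendritic cell genes (9 tested) were lower for 2, 8 and 4 in the order CD43++ckit+ against CD43+ckit-, CD43++ckit+ against CD43-ckit- and CD43+ckit- against CD43-ckit-. In the same order, B-lineage genes (8 tested) were lower for 0, 8 and 6, and erythroid genes (10 tested) for 10, 10 and 4. Megakaryocyte genes (8 tested) were higher for 1, 2 and 3 and lower for 4, 4 and 2, and T, NK and innate lymphoid genes (9 tested) higher for 1, 0 and 1 and lower for 1, 6 and 3. The part of these cells in the members' levels was not tested.

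The members' profiles over the 9 libraries fell closest together in the following pairs, measured as the root-mean-square difference of log2 CPM after centring each gene. Ms4a2 and Tph1 differed by 0.41, Hdc and Il1rl1 by 0.59 and Ms4a2 and Hdc by 0.74. Mcpt8 and Prss34 differed by 0.54, Fcer1g and Mcpt8 by 0.66 and Fcer1g and Prss34 by 0.73. Across these sets the differences were larger, at 3.02 for Ms4a2 and Fcer1g and 3.42 for Ms4a2 and Mcpt8. Fcer1a was nearest to Hdc, at 0.84, and was 0.91 from Ms4a2, and Cpa3 was nearest to Fcer1a, at 1.02.

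Among 9578 other tested genes, the 5 whose profile was most like that of Ms4a2 were Spred1 (0.31), Slc45a3 (0.31), Slc22a3 (0.36), Papss2 (0.38) and Mtap (0.41). Spred1, an inhibitor of Ras signalling, was at 95.7, 89.6 and 38.4 CPM in CD43++ckit+ and between 7.09 and 13.3 in the other 6 libraries. Slc45a3, a solute carrier, was at 131.2, 114.7 and 65.1 CPM in CD43++ckit+ and between 6.72 and 16.9 elsewhere. Slc22a3, a transporter that carries histamine and serotonin across the membrane, was at 262.0, 248.5 and 159.9 CPM in CD43++ckit+ and between 14.4 and 35.7 elsewhere. Papss2, which makes the sulfate donor, was at 47.7, 46.3 and 18.1 CPM in CD43++ckit+ and between 1.48 and 7.26 elsewhere, and Mtap, an enzyme of methionine salvage, was at 83.9, 78.8 and 43.3 against 7.38 to 13.6. In all 5, as in Ms4a2, CD43++ckit+ library 3 was the lowest of its population. These genes were chosen for a profile like that of Ms4a2 over these same libraries, so this shared order follows from the choice and is no separate result. With CD43++ckit+ library 1 left out, 3 of these 5 were again among the nearest.

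The genes that act beside the members were split. Ddc, the decarboxylase that completes serotonin synthesis, was at 369.8, 299.3 and 155.1 CPM in CD43++ckit+, at 140.3, 143.5 and 149.4 in CD43+ckit- and at 78.1, 71.0 and 82.9 in CD43-ckit-. Its populations did not overlap, although CD43++ckit+ library 3 was close to CD43+ckit-. The log2 difference was 0.93 for CD43++ckit+ against CD43+ckit- (adjusted p = 0.0205, lost without CD43++ckit+ library 1, CD43++ckit+ library 2, CD43+ckit- library 1 or CD43+ckit- library 3, at up to 0.0811). It was 1.83 for CD43++ckit+ against CD43-ckit- (adjusted p = 0.000346) and 0.90 for CD43+ckit- against CD43-ckit- (adjusted p = 0.0193, lost without CD43+ckit- library 2, CD43+ckit- library 3 or CD43-ckit- library 2, at up to 0.0648). Slc18a2, which loads amines into vesicles, was at 26.1, 23.2 and 4.17 CPM in CD43++ckit+, between 5.16 and 7.46 in CD43+ckit- and between 3.44 and 3.85 in CD43-ckit-. CD43++ckit+ library 3 lay below every CD43+ckit- library. The log2 difference of Slc18a2 from CD43-ckit- was 2.30 (adjusted p = 0.00577). That from CD43+ckit- was 1.55 (adjusted p = 0.0479) and did not pass when any one of 8 libraries was left out (all but CD43++ckit+ library 3, adjusted p up to 0.168).

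Il1rap, the co-receptor that IL-33 signalling needs, was at 11.3, 11.8 and 10.7 CPM in CD43++ckit+, at 5.41, 4.46 and 5.26 in CD43+ckit- and at 3.38, 5.56 and 4.81 in CD43-ckit-. It was higher in CD43++ckit+ by 1.16 on the log2 scale against CD43+ckit- (adjusted p = 0.00335) and by 1.30 against CD43-ckit- (adjusted p = 0.000823), and CD43+ckit- and CD43-ckit- overlapped (0.14, adjusted p = 0.616). Of the kinases and adaptors that the IgE receptor signals through, Lat was at 78.6, 72.5 and 45 CPM in CD43++ckit+ and between 6.13 and 14.6 in the other 6 libraries. This adaptor was higher by 2.52 against CD43+ckit- (adjusted p = 0.00157) and by 2.56 against CD43-ckit- (adjusted p = 0.000536). Lyn, the kinase that phosphorylates the beta and gamma chains, lay between 119.9 and 160.1 CPM in all libraries and was not called. Syk, which binds the phosphorylated gamma chain, was at 5.20, 2.57 and 45.5 CPM in CD43++ckit+, at 7.06, 37.0 and 27.1 in CD43+ckit- and at 101.4, 120.2 and 106.8 in CD43-ckit-. Within CD43++ckit+ library 3 was the highest, and within CD43+ckit- library 1 was the lowest. Its log2 difference was -2.62 for CD43++ckit+ against CD43-ckit- (adjusted p = 0.0513).

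Of the transcription factors known to act in mast cells, Mitf was low but higher in CD43++ckit+, at 8.04, 6.37 and 2.90 CPM against 0.838 to 1.67 in the other libraries (log2 difference 2.16 from either population; adjusted p = 0.00365 and 0.00179). Gata2 was at 325.6, 245.9 and 182.6 CPM in CD43++ckit+, at 358.4, 322.5 and 264.7 in CD43+ckit- and at 1262, 902.0 and 789.2 in CD43-ckit-. Against CD43-ckit- its log2 difference was -1.97 (adjusted p = 0.000171) and, at -0.33, was not called for CD43++ckit+ against CD43+ckit- (adjusted p = 0.332). Gata1 was at 270.2, 279.2 and 301.7 CPM in CD43++ckit+, between 534.7 and 651.7 in CD43+ckit- and between 669.4 and 945.4 in CD43-ckit-. Its CD43++ckit+ libraries were the 3 lowest, with log2 differences of -1.10 from CD43+ckit- (adjusted p = 0.00114) and -1.43 from CD43-ckit- (adjusted p = 0.000102).

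**Figure D5:**
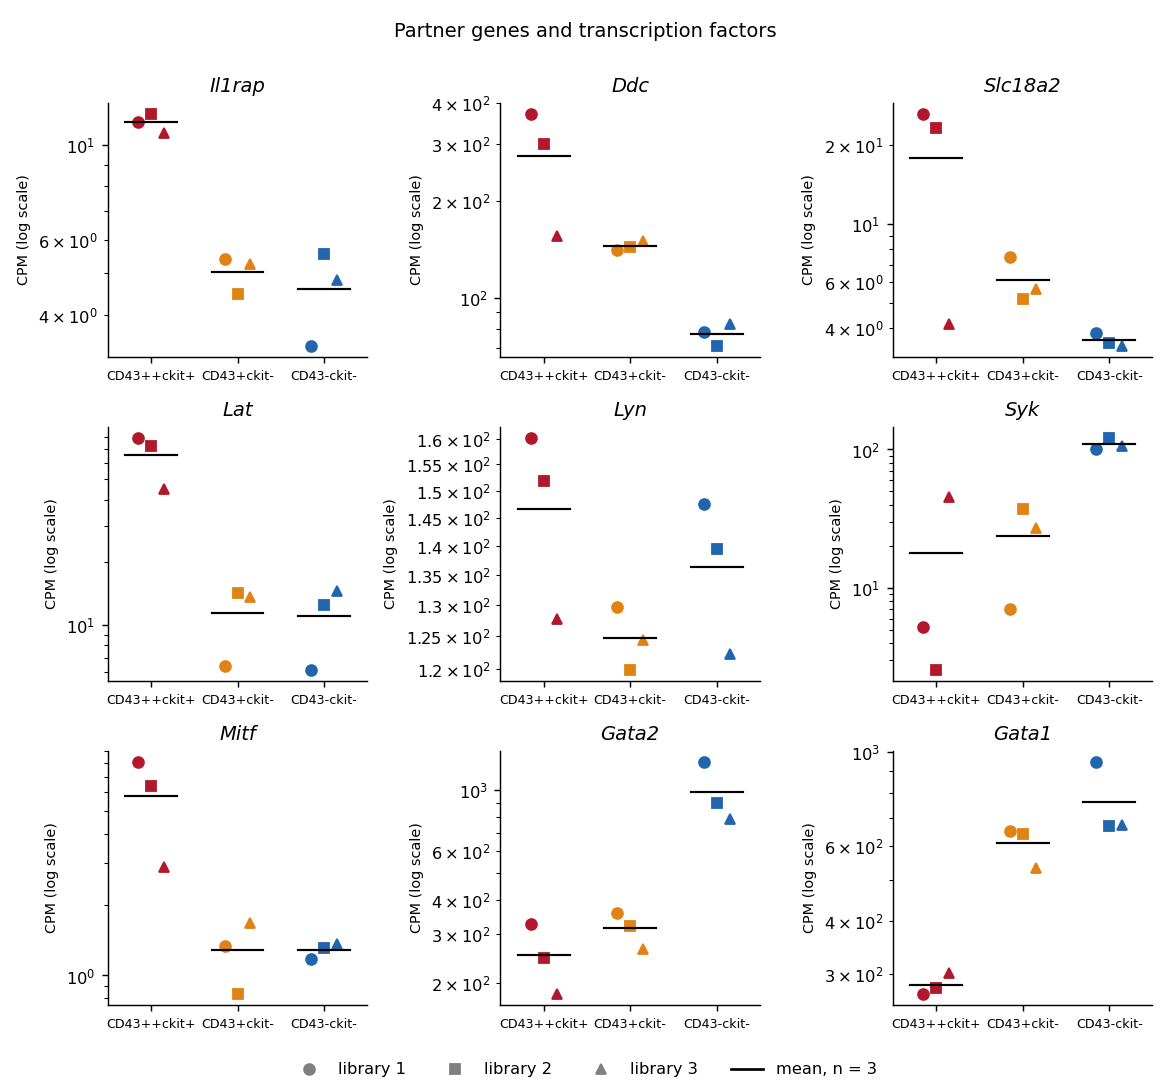
CPM (TMM-scaled, log axis) of 6 genes that act beside the members and of 3 transcription factors in each of the 9 libraries, with 1 point per library and a bar at the mean of 3. Il1rap, Ddc, Lat and Mitf lie highest in all 3 CD43++ckit+ libraries, Gata1 lies lowest there, and Syk lies highest in CD43-ckit-.

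Wider lists of the same pathways were counted in the same way, beside 39.8%, 67.4% and 51.9% of all tested genes called in the 3 comparisons. Nothing particular to a list is read from these counts. Of 20 IgE receptor signalling genes, 8 were higher and 2 lower in CD43++ckit+ compared with CD43+ckit-, 5 and 5 against CD43-ckit-, and 1 and 6 between CD43+ckit- and CD43-ckit-, with median log2 differences of 0.18, 0.04 and -0.50. For the second and the third comparison, 10 and 7 of 20 lie below the share of all tested genes. The adaptors Grap2 and Dok1 were lower in CD43++ckit+, at 122.5 against 593.4 and 987.1 CPM for Grap2 and 52.6 against 164.9 and 565.6 CPM for Dok1. Lat2, a relative of Lat, was at 1.85, 2.20 and 10.4 CPM in the 3 populations. Of 11 tested genes listed as receptors that signal through the gamma chain, 1 was higher in CD43++ckit+ compared with CD43+ckit-, 8 were lower against CD43-ckit-, and 6 were lower in CD43+ckit- relative to CD43-ckit-, with medians of -0.26, -2.34 and -2.16. The list was kept as chosen. It also holds Clec7a and Il3ra, for which a pairing with the gamma chain is not claimed here. Ncr1 averaged 0.0468, 0.0986 and 1.00 CPM, and Gp6 had 0 reads in all CD43++ckit+ and CD43+ckit- libraries and 14, 11 and 9 in CD43-ckit-, at least 33.0-fold and 24.9-fold lower against a floor of 3 reads over the group. Ncr1 and Gp6 reached the tested set only through their reads in CD43-ckit-, so the filter on low counts fixed the direction of their differences from it. Setting Gp6 to that floor left both medians as they were. Pira6, which has near-identical copies, averaged 1.54, 0.459 and 2.33 CPM.

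Of 10 tested genes of amine and serotonin handling, 5 were higher and 1 lower in CD43++ckit+ compared with CD43+ckit-, 6 and 2 against CD43-ckit-, and 4 and 0 between CD43+ckit- and CD43-ckit-, with medians of 0.54, 1.41 and 0.52. Slc22a3 was 9.55-fold higher in CD43++ckit+ compared with CD43+ckit- (adjusted p = 0.000486). Gch1, the first enzyme of the cofactor that Tph1 needs, was lower in CD43++ckit+, where it averaged 41.8 CPM, against 278.3 for CD43+ckit- and 323.0 for CD43-ckit-. Spr, a later enzyme of that cofactor, was at 50, 39 and 18.3 CPM. The serotonin transporter Slc6a4 (9 reads in all libraries together), the brain hydroxylase Tph2 (5 reads) and Maoa (40 reads) were too low to test. Of 17 tested cytokine receptor and signalling genes, 2 were higher and 5 lower in CD43++ckit+ compared with CD43+ckit-, 3 and 6 against CD43-ckit-, and 2 and 5 between CD43+ckit- and CD43-ckit-, with medians of -0.06, -0.95 and -1.17. Csf2rb, the shared chain of the IL-3, IL-5 and GM-CSF receptors, averaged 259.7, 1028 and 6268 CPM, and its close copy Csf2rb2 averaged 88.3, 705.9 and 5156, with reads of either possibly counted for the other. Il4ra averaged 35.1, 89.0 and 410.4 CPM. Il33 itself had 2 reads in all.

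Of 20 other mast cell granule and surface genes, 12 could be tested. With CD43++ckit+ set against CD43+ckit-, 2 were higher and 3 lower, against CD43-ckit- 5 and 6, and for CD43+ckit- against CD43-ckit- 4 and 2, with medians of 0.24, -1.08 and 0.27. Among the tested genes, Sytl3 passed only through its 10, 15 and 16 reads in CD43-ckit-, so the filter on low counts fixed the direction of its differences from that population. The chymase-family genes Mcpt1 and Mcpt2, near-identical to other family members, were lower in CD43++ckit+ (0.949 and 0.824 CPM) than in CD43+ckit- (6.23 and 8.10), and Itgb7, an integrin chain of mast cell progenitors, was also lower (356.2 against 837.9 CPM). Those too low to test held Mcpt4 (32 reads in all), Tpsab1 (11), Mrgprb2 (4) and Mrgprb1 (0), proteases and receptors of mature connective tissue mast cells. Chosen after their values were seen, Srgn, the granule proteoglycan, averaged 541.7, 251.3 and 291.5 CPM, and the chymase Cma1 averaged 2.80, 0.374 and 0.826. In CD43++ckit+ Cma1 was at 3.38, 4.35 and 0.670 CPM, with library 3 below CD43-ckit- libraries 2 and 3 (0.916 and 0.933). Other genes of the list ran the other way. Among them, Cd63 was at 2.82, 1.12 and 46.6 CPM in CD43++ckit+ and at 38.3, 78.4 and 82.9 in CD43-ckit-.

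Of 14 tested further basophil genes, 2 were higher and 0 lower in CD43++ckit+ compared with CD43+ckit-, 1 and 6 against CD43-ckit-, and 0 and 4 between CD43+ckit- and CD43-ckit-, with medians of 0.03, -1.86 and -1.85. Ptgdr2, a prostaglandin D2 receptor, averaged 1.2 CPM in CD43++ckit+, 0.328 in CD43+ckit- and 0.211 in CD43-ckit-. It had 46, 54 and 43 reads in CD43++ckit+ and 15 or fewer in every other library. Ptgdr2 reached the tested set only through its reads in CD43++ckit+, so the filter on low counts fixed the direction of its differences. Cd69, an activation marker, averaged 0.296, 0.384 and 2.43 CPM, and Aqp9, a water and glycerol channel, 277.2, 288.8 and 528.9 CPM. The order of Aqp9 depended on the scaling. With library totals in place of TMM, its log2 difference from CD43-ckit- was -0.01 for CD43++ckit+ (adjusted p = 0.946, edgeR) and -0.21 for CD43+ckit- (adjusted p = 0.0658), against -0.93 and -0.87 with TMM. Of 8 tested genes of eicosanoid synthesis, 4 were higher and 1 lower in CD43++ckit+ compared with CD43+ckit-, 3 and 1 against CD43-ckit-, and 1 and 1 between CD43+ckit- and CD43-ckit-, with medians of 1.02, 0.26 and -0.72. Pla2g4a, the phospholipase that frees arachidonic acid, was higher in CD43++ckit+ at 25.4 CPM against 4.59 and 6.21. Alox5, which starts leukotriene synthesis, averaged 491.0, 305.0 and 152.9 CPM, and Ptgs1, a cyclooxygenase, 13.4, 2.33 and 14.7 CPM. Hpgds, the prostaglandin D2 synthase of mast cells, had 64 reads in all and was not tested.

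Of 21 transcription factors of mast cells and basophils, 9 were higher and 3 lower in CD43++ckit+ compared with CD43+ckit-, 9 and 8 against CD43-ckit-, and 2 and 10 between CD43+ckit- and CD43-ckit-, with medians of 0.68, 0.21 and -0.92. The 3 lower ones were Gata1 and its partners Tal1 (316.6 against 632.2 CPM in CD43+ckit-) and Lmo2 (261.6 against 719.4 CPM). Fli1 averaged 44.7, 10.8 and 24.3 CPM and was higher in CD43++ckit+ than in both other populations.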

How the data were processed

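RNA-seq of 9 libraries, 3 for each of 3 sorted bone marrow populations, was analysed from a table of whole-number read counts per gene symbol that the authors deposited. Per the labels' protocols, libraries were made from Trizol-extracted total RNA with a TruSeq kit. The submitters' processing notes list HTSeq, edgeR, RSEM, TopHat2 2.0.4 and CASAVA 1.8 with no roles, and the series' design text adds BWA and Cufflinks. Those notes name a human genome build although the gene symbols are those of mouse. Which build, annotation and strand setting the counts used is not given in the sources used here.

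The low-count filter of edgeR (filterByExpr) asked for 15 reads in total and, in at least 3 libraries, the CPM that 10 reads make at the median library size. It left 12573 of 24391 genes, and TMM factors were 0.589 to 1.41. With edgeR 4.0.16 in R 4.3.3, all 9 libraries entered one fit with a mean per population (estimateDisp, robust glmQLFit, glmQLFTest), and p-values were adjusted by Benjamini-Hochberg over all tested genes, called under 0.05. SE is the log2 fold change divided by the square root of F. The test was checked on simulated counts. Alternatives were other scalings and filters, DESeq2 1.42.0, fewer libraries and a replicate block. CPM per kilobase used union exon lengths of the GENCODE M21 annotation. No member shared exons with another gene there, and 97.9% to 100.0% of each member's 50-base words were unique among transcripts.

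Replicate numbers were taken to pair libraries where every same-numbered pair of deviations from the group means correlated above 0.1. This held for CD43+ckit- with CD43-ckit- (r = 0.525, 0.366 and 0.303) and not for CD43++ckit+ with either (CD43++ckit+ against CD43+ckit-: 0.447, -0.617 and 0.382). Between CD43+ckit- and CD43-ckit-, libraries 2 and 3 correlated as much across numbers (0.343 and 0.349), so the numbers set only library 1 apart. The rule rests on the data, since the labels do not say what a number stands for. The block was therefore chosen from the same counts it was fitted to. Its fit over those populations also had few libraries to estimate the spread from. Its smallest adjusted p-values are not to be read as strength of evidence.

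The members and lists were chosen with earlier results of these data known. Named beside the members were the sort genes, 9 partner genes, the 3 genes with the smallest p in each list and the 5 genes most like Ms4a2 among those averaging a log2 CPM of 1 or more. Genes too low to test, Sytl3, Srgn, Cma1 and Cd63 were named after their values were seen, and Clec7a and Il3ra for their place in a list. The listed genes Clec6a, Mcpt11 and Trbc2 matched no row and were not analysed here. Protein sequences were not used here.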

Additional observations from a re-analysis of the deposited data

How the results depend on the processing

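Of 483 member fold changes recomputed under the alternatives, 420 kept their direction and their side of the threshold, 46 gained a call, 1 lost it (Fcer1a, CD43++ckit+ against CD43+ckit-, with the replicate block) and 16 turned, most of them near 0. For CD43++ckit+ against CD43+ckit- the turned values were, for Fcer1g, 0.05 with library totals, 0.19 without CD43++ckit+ library 1, 0.22 without CD43++ckit+ library 2 and 0.24 without CD43+ckit- library 2 (range -2.51 to 0.24 over all libraries left out singly). For Mcpt8 they were -0.07 with the block over all libraries, -0.83 with the block over the populations compared, -3.14 without CD43++ckit+ library 3 and -3.56 without the least similar library of each population (CD43++ckit+ library 3, CD43+ckit- library 1, CD43-ckit- library 1), with a range of -3.14 to 1.36 over single libraries left out. For Prss34 the last 2 gave -2.08 and -2.59 (range -2.08 to 1.63). With library totals, Cpa3 turned to 0.36 for CD43++ckit+ against CD43-ckit-, and for CD43+ckit- against CD43-ckit- Ms4a2 turned to 0.10, Hdc to 0.47 and Tph1 to 0.34; Hdc was also 0.03 without CD43+ckit- library 1 and 0.04 without CD43-ckit- library 3 (range -0.40 to 0.04). The cause was not tested.

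The share of all tested genes called in the same fit is given in brackets. The number of members called for CD43++ckit+ against CD43-ckit- was 7 with the replicate block over all libraries (70.3%), 8 without the least similar libraries (81.8%), and 4 to 8 when single libraries were left out (57.8% to 74.4%). For CD43+ckit- against CD43-ckit- it was 5 with DESeq2 (54.4%), 6 with only the libraries compared (53.9%), 4 with the block over all libraries (52.3%) and 7 with the block over the populations compared (66.7%). It was 7 without the least similar libraries (70%), and 2 to 6 when single libraries were left out (39.7% to 61.2%). For CD43++ckit+ against CD43+ckit- it was 5 with the block over the populations compared (31.4%), 9 without the least similar libraries (67.4%, 8478 of all tested genes called, against 5005) and 6 to 8 when single libraries were left out (28% to 46.7%). Calls over all tested genes when single libraries were left out ran from 3524 to 5875, from 7271 to 9359 and from 4996 to 7699 in the order CD43++ckit+ against CD43+ckit-, CD43++ckit+ against CD43-ckit- and CD43+ckit- against CD43-ckit-. The pairing rule was not met for CD43++ckit+ with either other population, which does not exclude a pairing. The block there moved no count of members by over 1.5 times except the 7 above.

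For the named genes outside the members, the alternatives were applied after seeing the data: 1464 of 1524 values kept direction and call, 59 lost the call, and Itgb7 turned to 0.51 for CD43++ckit+ against CD43-ckit- with library totals. Depth limits Cpa3 in CD43+ckit- and Mcpt8 in CD43++ckit+, where counts stayed under 10 in most libraries.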
